A study of Homo sapiens with 42 samples.

Results

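RNA levels in fibroblasts made senescent by oncogenic RAS were set directly against those in fibroblasts made senescent by bleomycin, as levels at the end point and not as differences between responses. IMR90 is an established strain of human fetal lung fibroblasts. IMR90 ER:RAS is a line made from it with a retrovirus that carries oncogenic HRAS fused to the hormone-binding part of the oestrogen receptor. The first group held the 3 libraries of ER:RAS cells given 100 nM 4-hydroxytamoxifen (4OHT), which switches the fusion on and leads to oncogene-induced senescence (OIS). The second group held the 4 libraries of IMR90 cells given bleomycin, a drug that breaks DNA, at 50 µg/ml for 24 h. All 7 carried the control shRNA, induced with doxycycline at 1 µg/ml for 72 h after 7 days of culture, and RNA was collected at day 10. They were chosen by their labels and are 7 of the 42 libraries of the series. The DMSO groups with the same shRNA, 3 libraries of ER:RAS and 4 of IMR90, showed which genes differed between the lines without a senescence stimulus. The ER:RAS cells given DMSO also carry the fusion. Stimulus and line changed together, so their parts in a difference between the end states cannot be told apart. The study calls its replicates independent experiments, and the labels say nothing on how they were grown.

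Senescence is a lasting exit from the cell cycle in which cells stay alive and secrete cytokines, chemokines and proteases, the senescence-associated secretory phenotype (SASP). RAS acts through the RAF, MEK and ERK kinases on transcription factors of the AP-1 and ETS families, and NF-kB and interleukin 1 are known to drive much of the secretion in OIS. DNA breaks act through the ATM kinase and p53, which induces growth arrest and repair genes. Lung fibroblasts outside senescence make collagens, proteoglycans and elastic fibres and respond to interferon.

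Expression is given as CPM, the count of a gene relative to the size of its library after TMM scaling, and differences as log2 fold changes, OIS minus bleomycin, so that a positive value is a higher level in OIS. Adjusted p-values are Benjamini-Hochberg values over 15299 genes from the quasi-likelihood test of edgeR, and a gene was called when they were under 0.05. The 7 libraries held 15771259 to 18578123 counts. The labels of the lines matched the fusion: HRAS stood at 3405 to 6785 CPM in the 6 ER:RAS libraries and at 29.1 to 93.1 CPM in the 8 IMR90 libraries, which were made without it. VIM, a fibroblast marker, stood at 3897 CPM or more in all 7, the surfactant gene SFTPB at 0, and the leukocyte marker PTPRC at 1.27 CPM at most. Other listed markers were not near 0. The epithelial keratins KRT18 and KRT8 stood at 37.9 to 162 and 13.6 to 30.6 CPM in OIS. After bleomycin they stood at 48.1 to 147 and 14.5 to 28.7 CPM. The leukocyte marker CD68 stood at 109 to 120 CPM in OIS and 57.6 to 96.5 CPM after bleomycin. Of 10 fibroblast markers 1 was called higher and 4 lower, both calls among 5 tested epithelial markers were lower, and 4 tested leukocyte markers gave 1 call in each direction. OIS replicate 1 had a TMM factor of 0.611, against 0.831 and 0.907 in the other OIS libraries and 1.03 to 1.12 after bleomycin, and it stood highest on an axis that held 74.7% of the variance within groups and whose gene weights correlated with GC content (r = 0.77 over 10485 genes). Bleomycin replicate 4 stood apart from its group in many secreted factors.

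The end states differed widely. Of the 15299 genes tested, 7376 were called (48.2%), 3572 with a higher level in OIS (23.3%) and 3804 with a lower level (24.9%). Without OIS replicate 1 the higher genes were 2365, and with only the 7 compared libraries fitted 2317 were higher and 2355 lower. The difference was at least 1 on the log2 scale, a doubling, in 5102 of them (2228 higher, 2874 lower) and at least 3 in 1107 (311 higher, 796 lower). The counts of called genes in the lists that follow are to be read against these shares, and in chemokines, replication and mitosis, the unfolded protein response and the coatomer list a smaller share than 48.2% was called. Without regard to the test, 6433 genes (42%) had no overlap between the 3 and the 4 libraries. The median over all genes was -0.12 on the log2 scale, and the median size of a called difference was 1.36. In contrast, 53 genes were called between the DMSO groups (0.346%), 34 higher in ER:RAS (0.222%) and 19 lower (0.124%), although the standard errors of both comparisons were alike (medians 0.33 and 0.32), and 1763 genes had an unadjusted p under 0.05 there. Leaving out 1 DMSO library at a time gave 19 (without IMR90 replicate 2) to 88 calls (without IMR90 replicate 1). Of the 7376 genes, 40 were also called between the DMSO groups, 30 in the same direction and 10 in the opposite one. The 40 depended on the fit: they were 5 with the 14 control-shRNA libraries fitted, 2 with only the compared libraries, 120 by the Wald test of DESeq2 and 15 to 66 with 1 library left out. A missed call there does not show equal levels: 1171 of the other 7336 genes had an unadjusted p under 0.05 between the DMSO groups and 630 differed there by at least 1 on the log2 scale, 475 of them with the sign of the end state. The end-state difference differed from that between the DMSO groups by the test of one against the other in 3101 genes (20.3%), 2983 of them among the 7336.

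**Figure D1:**
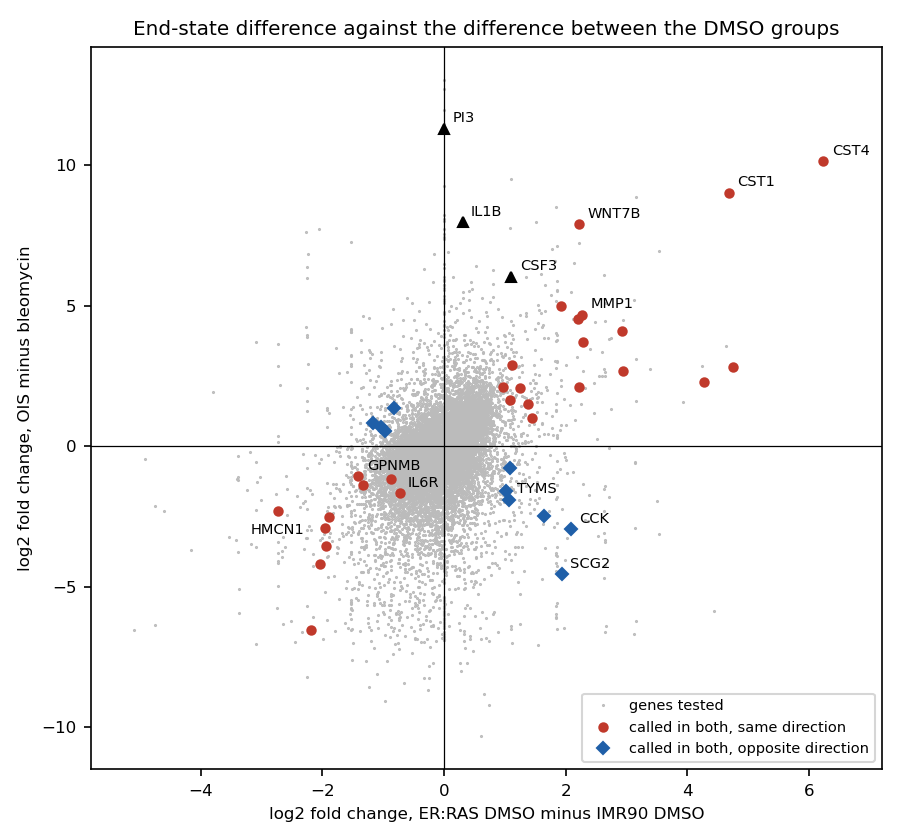
Log2 fold change of each tested gene between the DMSO groups (ER:RAS minus IMR90, x axis) against that between the end states (OIS minus bleomycin, y axis), without HRAS, ESR1, XIST and Y-linked genes. Red circles and blue diamonds are genes called in both comparisons in the same and in the opposite direction, black triangles are IL1B, PI3 and CSF3, and grey points with few counts are fitted values and not bounds; the y axis spreads far more widely than the x axis.

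IL1B, which encodes interleukin 1 beta, an upstream cytokine of the SASP, was among the most abundant transcripts of OIS. It stood at 10120, 8088 and 6509 CPM in the OIS libraries and at 22.6, 9.4, 10.1 and 89.1 CPM after bleomycin. The groups did not overlap (log2 fold change 7.97, SE 1.12, adjusted p = 5.55e-07), and the lowest OIS library was far above bleomycin replicate 4, the highest of its group, without which the difference was 9.20. With DMSO it stood at 0.598 to 0.962 CPM in both lines. PI3 encodes elafin, an inhibitor of neutrophil elastase. Its level was 668, 383 and 298 CPM in OIS and 0.287, 0.172, 0.0575 and 0.156 CPM after bleomycin (log2 fold change 11.29, SE 0.95, adjusted p = 4.36e-09), and no DMSO library held a count. CSF3, the granulocyte colony-stimulating factor, reached 628, 368 and 255 CPM in OIS against 0.91, 0.229, 0.115 and 24.2 CPM (log2 fold change 6.03, SE 1.77, adjusted p = 0.00619). The groups did not overlap, but bleomycin replicate 4 alone held most of the counts of its group, and without it the difference was 9.88.

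The interleukins, colony-stimulating factors and other cytokines were mostly higher in OIS. Of 27 listed, 23 passed the filter on low counts, and 13 were called higher, 5 lower and 5 not, with a median of 2.06 against -0.12 over all genes. CSF2, the granulocyte and macrophage colony-stimulating factor, stood at 626, 445 and 349 CPM in OIS and at 1.25, 0.688, 0.173 and 0.415 CPM after bleomycin (log2 fold change 9.51, SE 0.92, adjusted p = 4.21e-10). IL1A, the cell-bound counterpart of IL1B, stood at 111, 327 and 348 CPM against 4.55, 0.746, 3.34 and 9.44 CPM (log2 fold change 5.85, SE 1.04, adjusted p = 2.47e-05). In both genes the lowest OIS library exceeded the highest after bleomycin by a wide margin. IL11 and LIF signal through the shared receptor gp130 as IL6 does. IL11 was at 1678, 1605 and 2037 CPM against 35.9, 20.4, 25.7 and 157 CPM (log2 fold change 4.89, SE 0.84, adjusted p = 1.42e-05), or 6.02 without bleomycin replicate 4. LIF was closer, at 1832, 1482 and 1339 CPM against 330.5, 237, 232 and 566 CPM (log2 fold change 2.18, SE 0.40, adjusted p = 3.94e-05), again without overlap. IL6 itself was not called: 226, 132 and 80.1 CPM against 19.6, 18.5, 7.36 and 187 CPM (log2 fold change 1.33, SE 1.05, adjusted p = 0.304). Its groups overlapped through bleomycin replicate 4, without which the difference was 3.27 and called (adjusted p = 0.0193). TNFSF15, IL24, IL36B and the receptor antagonist IL1RN were also higher, by 5.08, 6.08, 5.09 and 4.70, TNFSF15 by 6.97 without that replicate. CSF1, the macrophage growth factor, was lower in OIS, at 32.5, 20.2 and 19.3 CPM against 68, 81.2, 55.1 and 65 CPM (log2 fold change -1.49, SE 0.24, adjusted p = 4.04e-06), as was IL12A (log2 fold change -1.43, SE 0.29, adjusted p = 0.000129).

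Chemokines, which attract leukocytes, were split. Of 23, 18 passed the filter, 6 were called higher, 2 lower and 10 not, a share near the 48.2% of all genes, with a median of 1.59. CXCL8, the main neutrophil attractant, stood at 2760, 9410 and 8825 CPM in OIS and at 96.6, 37, 41.1 and 1146 CPM after bleomycin (log2 fold change 4.41, SE 1.35, adjusted p = 0.00765). CXCL5, which binds the same receptor, was at 2597, 3642 and 3995 CPM against 10.3, 10.4, 5 and 489 CPM (log2 fold change 4.73, SE 1.57, adjusted p = 0.0129). Neither gene overlapped between the groups, but in both bleomycin replicate 4 was far above the other 3 of its group. Without it the differences were 6.91 and 8.63, that of CXCL10 went from 2.54 to 4.23, and the list gave 10 higher and 2 lower with a median of 2.25. CXCL10, an interferon-induced attractant of T cells, was not called when only the compared libraries were fitted. CXCL1, CXCL2, CXCL3 and CXCL6 were not called with all libraries (2.09, 2.81, 3.29 and 2.24; adjusted p = 0.191, 0.0608, 0.0524 and 0.127) and were called without that library (5.32, 5.82, 6.88 and 5.38). CCL20, an attractant of dendritic cells and lymphocytes, was higher by 3.86 (SE 1.23), or by 5.78 without that library. CCL2, the monocyte attractant, did not follow: 249.6, 126 and 43.8 CPM against 112, 278, 101 and 321 CPM (log2 fold change -0.54, SE 0.64, adjusted p = 0.511), with overlapping groups. CXCL12, the stromal chemokine bound by CXCR4, was nearly absent in OIS, at 0.18, 0 and 0.0634 CPM against 7.8, 17.6, 7.25 and 15 CPM, a log2 ratio of -7.37 with a 95% counting interval of -9.65 to -5.81, and CXCL14 had a log2 ratio of -5.41 with a 95% counting interval of -7.69 to -3.84. These counting intervals cover counting error only.

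**Figure D2:**
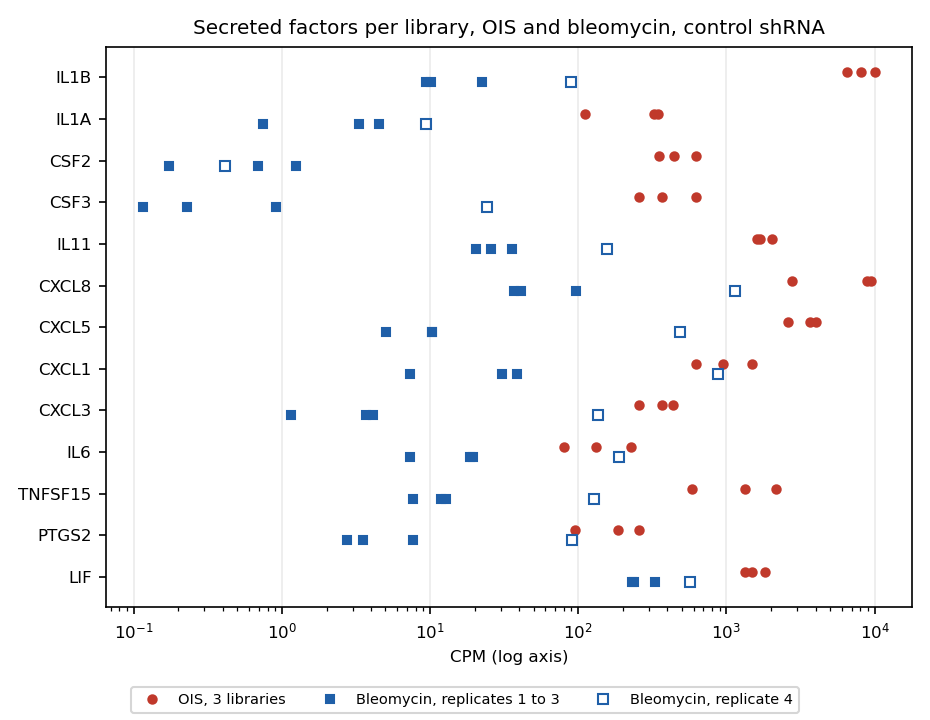
CPM of 12 secreted factors and of PTGS2 in the 7 libraries, on a log axis: red circles are OIS, filled squares bleomycin replicates 1 to 3 and open squares bleomycin replicate 4. For CXCL8 the OIS libraries sit between 2760 and 9410 CPM, the filled squares between 37.0 and 96.6 CPM and the open square at 1146 CPM.

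Regulators and targets of NF-kB were higher or not called. Of 22 genes edgeR and the Wald test of DESeq2 each called 12 higher and 0 lower, 13 were higher and 0 lower at an unadjusted p under 0.05 in edgeR, and the median was 1.20. TLR2, a receptor for bacterial lipopeptides, stood at 10.7, 9.45 and 20.7 CPM in OIS and at 0.431, 0.229, 0.288 and 0.207 CPM after bleomycin (log2 fold change 5.52, SE 0.39, adjusted p = 5.25e-13). ZC3H12A, an RNase that degrades cytokine mRNAs, was higher by 3.06 (SE 0.57), the signalling adaptor TRAF1 by 2.35 (SE 0.34), and the subunits RELB and NFKB2 by 1.87 (SE 0.31) and 1.29 (SE 0.31). RELA, whose activity is set mostly by its location, was at 0.52 and not called (adjusted p = 0.121), but was at 0.73 and called without OIS replicate 3. NFKBIA, the inhibitor that NF-kB induces, was called at 0.90, a call lost without OIS replicate 1 (0.45) or bleomycin replicate 3 (0.79) and when only the compared libraries were fitted.

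The promoters of these genes are shown to let a reader see where letters of AP-1, ETS and NF-kB motifs lie in genes with large differences. Each line gives the 250 bases before the transcription start from RefSeq (GRCh38.p14), 5′ to 3′ on the gene's strand, for IL1B (chr2:112836780-112837029, minus strand), CXCL8 (chr4:73740319-73740568, plus strand) and the protease gene MMP10 (chr11:102780629-102780878, minus strand), with motif matches in capitals.
IL1B: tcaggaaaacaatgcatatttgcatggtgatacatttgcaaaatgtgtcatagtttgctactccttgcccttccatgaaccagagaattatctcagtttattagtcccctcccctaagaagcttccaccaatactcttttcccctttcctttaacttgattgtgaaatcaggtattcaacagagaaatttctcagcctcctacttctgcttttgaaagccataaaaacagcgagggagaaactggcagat
CXCL8: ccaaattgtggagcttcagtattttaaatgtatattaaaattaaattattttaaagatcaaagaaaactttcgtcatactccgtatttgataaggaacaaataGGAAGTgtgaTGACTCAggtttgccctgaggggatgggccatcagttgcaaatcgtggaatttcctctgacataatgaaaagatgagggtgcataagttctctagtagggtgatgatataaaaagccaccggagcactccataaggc
MMP10: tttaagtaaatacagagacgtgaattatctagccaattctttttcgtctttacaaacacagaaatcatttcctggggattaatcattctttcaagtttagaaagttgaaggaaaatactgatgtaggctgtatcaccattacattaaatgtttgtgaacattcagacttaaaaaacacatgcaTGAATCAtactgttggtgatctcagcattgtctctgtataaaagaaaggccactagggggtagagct
The letters searched on both strands were TGANTCA for AP-1, GGAAGT for ETS and the consensus of NF-kB. CXCL8 held TGACTCA from base 137 before the start and GGAAGT from base 147, MMP10 held TGAATCA from base 67, and the window of IL1B held none of them. No window shown here held the NF-kB consensus, which was searched in a single fixed form. Of all 35116 promoters in the table, 6.57% held the AP-1 letters, 19.5% the ETS letters and 5.21% the NF-kB consensus, so a match is a description of these letters and not a site. A window without a match may still hold a site that departs from the letters searched.

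Feedback regulators and targets of ERK were mostly higher in OIS, in cells that carry the RAS fusion. Of 28 genes 20 were called higher, 2 lower and 6 not, with a median of 1.62. DUSP4 and DUSP5 encode nuclear phosphatases that act on ERK. DUSP4 stood at 149, 119 and 135 CPM in OIS and at 17, 10.5, 12.9 and 13.9 CPM after bleomycin (log2 fold change 3.31, SE 0.26, adjusted p = 5.84e-12), and DUSP5 at 669.9, 512 and 648 CPM against 108, 82.8, 93 and 60.5 CPM (log2 fold change 2.82, SE 0.21, adjusted p = 1.83e-12). The groups were far apart in both. DUSP6, the cytoplasmic phosphatase, was higher by 1.99 (SE 0.34), and SPRY2 and SPRY4, inhibitors of receptor signalling, by 2.40 (SE 0.22) and 2.31 (SE 0.24). The ETS factor ETV4 was higher by 2.88 (SE 0.27) and was also higher in ER:RAS between the DMSO groups (1.12, SE 0.26, adjusted p = 0.0449). SPHK1, the kinase that makes sphingosine-1-phosphate, IER3, an early response gene, and MYC were higher by 4.14, 3.20 and 1.49. FOSL2, an AP-1 subunit, was lower in OIS, at 56.1, 50.9 and 56.4 CPM against 111, 154, 103 and 136 CPM (log2 fold change -1.21, SE 0.17, adjusted p = 4.08e-07). FOSL1, another AP-1 subunit, was not called (0.61, adjusted p = 0.0639) but was without bleomycin replicate 1 (0.78) and with the size factors of DESeq2. The cyclin CCND1 was not called (0.18, adjusted p = 0.517) and was high in both end states, at 3005 to 4408 and 2579 to 4121 CPM.

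Ligands and receptors of the EGF family went in both directions. Of 9 genes that passed the filter, 4 were called higher and 3 lower, with a median of -0.02 (0.02 with the size factors of DESeq2). The 4 were the ligands AREG, EREG, NRG1 and HBEGF, which bind EGFR or its relatives. AREG, amphiregulin, stood at 737, 705 and 1005 CPM in OIS and at 5.75, 3.44, 4.66 and 46.6 CPM after bleomycin (log2 fold change 5.75, SE 1.05, adjusted p = 3.48e-05), with replicate 4 the highest of its group and a difference of 7.46 without it. EREG, NRG1 and HBEGF were higher by 3.58 (SE 0.64), 2.55 (SE 0.57) and 1.59 (SE 0.28), again with no overlap. The receptor ERBB2 was lower in OIS, at 55.3, 28.7 and 28.7 CPM against 122, 149, 104 and 92.9 CPM (log2 fold change -1.64, SE 0.29, adjusted p = 2.56e-05), and EGF itself at -2.96 (SE 0.45). EGFR was called lower at -1.02 (SE 0.33). That call was lost without OIS replicate 1 (-0.68) or 2 (-0.89) and when only the compared libraries were fitted, and the difference was -1.65 without OIS replicate 3.

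Matrix metalloproteinases, which cleave collagens and other matrix proteins, were mostly higher in OIS. Of 24 listed with their tissue inhibitors, 22 passed the filter, 12 were called higher and 4 lower, with a median of 0.61. MMP1, interstitial collagenase, was second to TIMP1 in the difference in CPM among genes called higher in OIS without overlap. It stood at 11410, 9113 and 15240 CPM in OIS against 699.6, 150, 550.3 and 456 CPM after bleomycin (log2 fold change 4.68, SE 0.52, adjusted p = 7.47e-09). It was also higher in ER:RAS between the DMSO groups (2.27, SE 0.48, adjusted p = 0.0201), at 46.6 to 70.6 against 7.84 to 13 CPM, and the end-state difference exceeded that one (adjusted p = 0.0101). The stromelysin MMP3 stood at 2383, 1283 and 2042 CPM against 31.1, 7.63, 14.1 and 89.7 CPM (log2 fold change 5.74, SE 1.07, adjusted p = 4.76e-05), or 6.75 without bleomycin replicate 4. MMP10, the second stromelysin, stood at 284, 269.8 and 451 CPM against 0.718, 0.401, 0.345 and 3.84 CPM (log2 fold change 7.96, SE 0.87, adjusted p = 4.90e-09). Neither gene overlapped between the groups. MMP7, MMP9 and MMP12 were higher by 7.25 (SE 0.47), 7.71 (SE 0.86) and 5.18 (SE 0.62), and the membrane-bound MMP14 by 2.33 (SE 0.27). The inhibitors diverged. TIMP1 was higher in OIS, at 24040, 12300 and 8756 CPM against 3766, 4031, 2679 and 3761 CPM (log2 fold change 2.08, SE 0.33, adjusted p = 3.64e-06), TIMP3 lower, at 288, 227 and 303 CPM against 1007, 1073, 935 and 1294 CPM (log2 fold change -1.98, SE 0.17, adjusted p = 3.15e-11), and TIMP2 was not called (-0.38, adjusted p = 0.175).

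The plasminogen activators, their receptor and serpins followed, with 21 of 22 genes tested, 14 called higher and 5 lower, and a median of 1.49. The 14 include SERPINA9 and SERPINB4, which were at or near 0 after bleomycin and had no count in the DMSO libraries. Such genes could pass the filter only where OIS was high and could then only be called higher, so the 14 is not read as a share. PLAUR, the urokinase receptor, stood at 1021, 478 and 404 CPM in OIS and at 98.3, 72.4, 65.2 and 73.4 CPM after bleomycin (log2 fold change 3.04, SE 0.30, adjusted p = 4.75e-10). Its ligand PLAU was higher by 1.49 (SE 0.25), but differed as much between the DMSO groups (1.38, SE 0.25, adjusted p = 0.00492), and the test of one difference against the other did not call it (adjusted p = 0.889). SERPINB2, which blocks urokinase, was higher by 5.50 (SE 0.60). SERPINA9, a serpin of germinal centre B cells, stood at 152, 144 and 103 CPM in OIS against 0, 0, 0 and 0.0519 CPM, with 5484 counts in OIS and 1 after bleomycin, a log2 ratio of 13.26 with a 95% counting interval of 10.78 to 18.56. SERPINB4, a squamous cell antigen, stood at 21.8, 64.4 and 85.2 CPM in OIS and had no count after bleomycin, so it was higher by at least 10.57 on the log2 scale against a floor of 3 counts over the group. SERPINB4 and its neighbour SERPINB3 are near-identical, and how reads were divided between them is uncertain. SERPINE2 and SERPING1, the inhibitors of thrombin and of complement, were lower in OIS (-1.15, SE 0.25, and -3.22, SE 0.37), the former not called after the correction for GC content and length (adjusted p = 0.549).

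Several of the largest differences were in genes of the epidermal barrier, which is made by keratinocytes. Of 33 listed, 32 were in the table and 12 passed the filter. Since a gene at 0 elsewhere could pass only where OIS was high, no count is read from these 12. LCE1F, a late cornified envelope gene, stood at 120.3, 64.8 and 55.9 CPM in OIS and had 1 count in the 4 bleomycin libraries, a log2 ratio of 12.48 with a 95% counting interval of 10.00 to 17.78. LCE3D stood at 36.3, 14 and 7.6 CPM and had no count after bleomycin, a difference of at least 8.77, although the Wald test of DESeq2 did not call it. IVL, involucrin, and SPRR2A, a small proline-rich protein, were low even in OIS, at 1.65 to 3.88 and 0.444 to 3.25 CPM, with log2 ratios of 5.88 with a 95% counting interval of 4.29 to 8.18 and of 6.79 with a 95% counting interval of 4.26 to 12.12. None of PI3, LCE1F, LCE3D, IVL or SPRR2A had a count in any DMSO library. The summed level of 12 epithelial markers, which hold none of these genes, was 52.8 to 198 CPM in OIS and 69.0 to 202 CPM after bleomycin. Reads of LCE genes and of SPRR2 genes may be shared between near-identical copies. TGM1, the transglutaminase that crosslinks the envelope, went the other way, at 0.0903 to 0.33 against 0.933 to 1.61 CPM (log2 fold change -2.50, SE 0.49, adjusted p = 9.41e-05).

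Markers of endothelium were also higher. Of 9 fixed markers 6 were called higher in OIS, 1 lower and 2 not, and their summed level was 86.4 to 128 CPM in OIS, 9.61 to 35.5 after bleomycin, 16.6 to 18.6 in ER:RAS with DMSO and 24.5 to 36.7 in IMR90 with DMSO. CLDN5, the tight junction gene of endothelium, stood at 74.9, 46.6 and 36.1 CPM in OIS and at 0.287, 0.172, 0.46 and 0.467 CPM after bleomycin (log2 fold change 7.21, SE 0.63, adjusted p = 4.26e-11), and the receptor TIE1 at 38.9, 27 and 36.6 against 0.527, 0.574, 0.173 and 0.415 CPM (log2 fold change 6.31, SE 0.43, adjusted p = 2.30e-13). The defining marker CDH5 reached 1.72 to 3.1 CPM in OIS and PECAM1 2.53 to 2.91 CPM, while the receptor KDR was at 0 to 0.198 CPM and TEK was lower in OIS (-2.30, SE 0.49). SOX17, a transcription factor of endothelium and endoderm that is not on the list, stood at 19.6, 14.1 and 18 CPM in OIS and had 3 counts over the bleomycin group, a log2 ratio of 8.73 with a 95% counting interval of 7.18 to 11.01. SLAMF8, a receptor of macrophages, stood at 7.67, 8.33 and 12.2 CPM and had 1 count after bleomycin, a log2 ratio of 9.49 with a 95% counting interval of 7.01 to 14.80. In bulk RNA more cells of a type and more RNA per cell cannot be told apart, and the part of other cell types in these values was not tested.

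Targets of p53 were mostly lower in OIS than after bleomycin. Of 31 genes 17 were called lower, 2 higher and 12 not, with a median of -0.82. MDM2, the ubiquitin ligase that p53 induces against itself, stood at 18.1, 41.8 and 76 CPM in OIS and at 182, 115, 298 and 278 CPM after bleomycin (log2 fold change -2.27, SE 0.55, adjusted p = 0.000967). FAS, the death receptor, stood at 7.94, 12.8 and 13.1 CPM against 77.6, 44.9, 126 and 99.8 CPM (log2 fold change -2.94, SE 0.46, adjusted p = 3.89e-06). The groups did not overlap in either gene, and in FAS each bleomycin library was above each DMSO library (9.82 to 40.7 CPM), which the OIS libraries were not. GADD45A, BTG2, TP53INP1 and SESN1, which act in repair, arrest and stress responses, were lower at -1.63, -1.83, -2.08 and -1.44 on the log2 scale. CDKN1A, the p21 inhibitor and best-known p53 target, was high in both and not called, at 7332, 4856 and 2831 CPM against 3950, 3393, 3311 and 2229 CPM (log2 fold change 0.64, SE 0.36, adjusted p = 0.14), and was called without OIS replicate 3 (0.92). The 2 genes called higher were PLK3 (2.01, SE 0.27) and the stress cytokine GDF15 (1.63, SE 0.48), and the call of GDF15 was lost without OIS replicate 1 (0.98) and after a correction for GC content and length.

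Cyclin-dependent kinase inhibitors went in both directions. CDKN2A, which encodes the INK4a and ARF proteins, stood at 669, 312 and 165 CPM in OIS and at 72.5, 65, 54.6 and 42.2 CPM after bleomycin (log2 fold change 2.70, SE 0.38, adjusted p = 7.01e-07), the latter near the IMR90 level with DMSO (59.2 to 85.1 CPM). CDKN2B was higher by 1.97 (SE 0.36), whereas CDKN1B and CDKN1C were lower at -1.05 (SE 0.28) and -1.38 (SE 0.27). CDKN2C was not called (-0.39, adjusted p = 0.276), but was lower after the correction for GC content and length (-0.72, adjusted p = 0.0427). Of all 7 inhibitors 3 were called higher and 2 lower (median 0.64, or 0.26 without OIS replicate 1). Of 43 genes of replication and mitosis 8 were called higher and 11 lower (median -0.63), a share near the 48.2% of all genes. PCNA, the polymerase clamp and also a p53 target, stood at 41 to 49.1 CPM in OIS against 112 to 152 CPM (log2 fold change -1.50, SE 0.18, adjusted p = 2.15e-08). The cyclin CCNA2 was lower at -2.13 (SE 0.48) and TYMS at -1.90 (SE 0.22), while the transcription factor E2F1 was higher by 1.92 (SE 0.30). LMNB1, the lamin lost in senescence, was not called, at 1.99 to 3.48 and 1.1 to 3.01 CPM against 9.09 to 17.1 CPM with DMSO (log2 fold change 0.42, SE 0.29, adjusted p = 0.238), and was called higher in OIS without bleomycin replicate 4 (0.72).

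Matrix genes were mostly lower in OIS. Among 26 collagens tested, 12 were called lower and 5 higher, with a median of -0.64. Among 31 genes of elastic fibres, glycoproteins, proteoglycans and lysyl oxidases, 19 were called lower and 4 higher, with a median of -1.78, or -1.60 with genes at 0 in OIS set to their bounds. COL1A2, a chain of type I collagen, had the largest difference in CPM among genes called lower in OIS without overlap. It stood at 840.4, 424 and 536 CPM against 3421, 6525, 3707 and 4896 CPM (log2 fold change -2.95, SE 0.29, adjusted p = 4.64e-10). COL1A1, the other chain, was not called, at 2494, 1536 and 1672 CPM against 1805, 4358, 1901 and 2887 CPM (log2 fold change -0.53, SE 0.33, adjusted p = 0.189), and its groups overlapped. COL3A1 stood at 118, 73.7 and 98 CPM against 338, 1248, 409.9 and 1120 CPM (log2 fold change -3.01, SE 0.42, adjusted p = 4.37e-07). COL14A1 and COL15A1 were lower at -6.57 (SE 0.84) and -3.72 (SE 0.34). The type VI chains COL6A1 and COL6A2 were higher in OIS by 1.42 (SE 0.26) and 2.28 (SE 0.27), as was COL10A1, the collagen of growth plate cartilage, by 4.48 (SE 0.49).

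Decorin and its relatives, small proteoglycans that bind collagen fibrils, showed wide gaps. DCN stood at 13.3, 9.19 and 9.31 CPM in OIS and at 219, 949, 304 and 658 CPM after bleomycin (log2 fold change -5.65, SE 0.49, adjusted p = 3.92e-11), and with DMSO it was far above both, at 1431 to 2279 CPM. LUM, lumican, was lower at -3.86 (SE 0.59), and PODN, podocan, stood at 0.18, 0.132 and 0 CPM against 20.2, 57.1, 16.2 and 33.1 CPM (log2 fold change -8.26, SE 0.66, adjusted p = 6.19e-12). BGN, biglycan, was the exception, at 418, 384 and 322 CPM in OIS against 96.4, 133, 58.7 and 97.6 CPM (log2 fold change 1.96, SE 0.32, adjusted p = 6.35e-06). EFEMP1, a fibulin of elastic fibres, stood at 0.812, 0.595 and 1.96 CPM against 59.9, 118, 67.1 and 136 CPM (log2 fold change -6.37, SE 0.40, adjusted p = 2.26e-14). None of these groups overlapped, and in DCN, LUM, PODN and EFEMP1 each OIS library was also below each DMSO library. FN1, fibronectin, and THBS1 were lower at -1.28 (SE 0.28) and -1.78 (SE 0.32), and the crosslinking enzyme LOX at -1.86 (SE 0.32), whereas TNC, tenascin C, was higher by 1.40 (SE 0.28). The call of FN1 was lost after the correction for GC content and length (adjusted p = 0.0866). FN1 was also at -0.85 (SE 0.28) between the DMSO groups, not called in edgeR (adjusted p = 0.225). The test of one difference against the other did not call it either (adjusted p = 0.508). The promoter of PODN (chr1:53061963-53062212, plus strand, GRCh38.p14) is shown as that of the matrix gene with the largest fitted difference, with the ETS letters in capitals from base 204 before the start.
PODN: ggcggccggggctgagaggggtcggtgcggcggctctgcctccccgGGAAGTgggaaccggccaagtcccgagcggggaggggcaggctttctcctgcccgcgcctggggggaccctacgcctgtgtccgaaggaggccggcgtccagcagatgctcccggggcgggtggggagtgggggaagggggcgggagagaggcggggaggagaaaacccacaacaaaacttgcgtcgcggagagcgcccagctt

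Most calls among other genes of the fibroblast programme went with the matrix. Contractile genes of smooth muscle had 7 of 16 called lower and 3 higher (median -1.34). LMOD1, leiomodin, stood at 0.903, 1.06 and 1.14 CPM in OIS and at 40.6, 106, 46.8 and 47.4 CPM after bleomycin (log2 fold change -5.84, SE 0.49, adjusted p = 1.43e-11), and CNN1 and TAGLN were lower at -2.54 (SE 0.51) and -1.79 (SE 0.54). SMTN, smoothelin, was higher by 1.69 (SE 0.30). ACTA2 was not called (0.06, adjusted p = 0.894), nor were ACTG2, ACTC1 and CALD1 (-0.81, -1.60 and -1.09). The summed level of the contractile list overlapped, at 3693 to 11850 CPM in OIS and 3938 to 6697 CPM after bleomycin. Genes that mark lung mesenchyme had 11 of 17 called lower and 5 higher (median -2.40). TBX4, a lung mesenchyme transcription factor, stood at 0.18, 0.33 and 0.317 CPM against 6.42, 12, 5.41 and 8.14 CPM (log2 fold change -4.79, SE 0.43, adjusted p = 8.77e-11). TCF21 was lower at -2.95 (SE 0.53), and the ligand WNT2 had no count in OIS and 99 after bleomycin, lower by at least 4.21 on the log2 scale. FOXF1, a regulator of the same tissue, was called higher by 0.54, a call lost without OIS replicate 1 (0.35) and when only the compared libraries were fitted. Of the 5 higher genes the largest difference was 2.36, and 4 had no overlap between the groups. With both COPB2 shRNAs 1 of the 5 remained higher. The summed level of the lung list was 912 to 1281 CPM in OIS and 756 to 1258 CPM after bleomycin. Neither the contractile nor the lung list held a gene that was also called between the DMSO groups. Only 0.346% of all genes were called there, so nothing is read from this.

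Ligands and antagonists of the TGF-beta family were split: of 26 genes 7 were called higher and 9 lower (median -0.19). BMP2, a bone morphogenetic protein, stood at 350, 356 and 531 CPM in OIS and at 17.6, 7.63, 12.2 and 24.2 CPM after bleomycin (log2 fold change 4.74, SE 0.57, adjusted p = 3.61e-08), while BMP4 was lower at -2.54 (SE 0.37). INHBA, which forms activin A, was higher by 3.61 (SE 0.57) and its antagonist FST lower, at 18.8, 13.1 and 16 CPM against 157, 152, 159.9 and 212 CPM (log2 fold change -3.42, SE 0.25, adjusted p = 1.08e-12). TGFB1 was higher by 1.87 (SE 0.28) and TGFB2 lower at -2.77 (SE 0.41). In the IGF pathway, with 4 called higher and 4 lower of 9, 5 in all without bleomycin replicate 1 (median 0.50, or -0.16 after the correction for GC content and length), the receptor IGF1R was lower at -2.11 (SE 0.24) and IGFBP2 at -2.07 (SE 0.41), and IGFBP3 was higher by 1.58 (SE 0.34). The WNT antagonists SFRP1 and DKK3 were among the genes with the largest difference in CPM, at 199.9, 245 and 396 CPM in OIS against 1567, 1377, 1612 and 1259 CPM for SFRP1 (log2 fold change -2.37, SE 0.24, adjusted p = 1.17e-09), and a difference of -1.11 (SE 0.20) for DKK3, whose call was lost after the correction for GC content and length.

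Genes lowest in OIS by the rule on size were of mixed function. CDH10, a cadherin, had no count in OIS and stood at 6.46, 7.91, 12.1 and 8.35 CPM after bleomycin, a difference of at least 6.91 (log2). Without a stimulus it was at 0.105 to 0.815 CPM, below each bleomycin library. GPRC5A, an orphan receptor induced by retinoic acid, stood at 1.9, 0.661 and 1.14 CPM in OIS against 179.8, 442, 188 and 204 CPM (log2 fold change -7.71, SE 0.58, adjusted p = 1.78e-12), and with DMSO at 43.2 to 82 CPM, between the end states. ELOVL2, an elongase of long fatty acids, and FGL2, a fibrinogen-like protein, had 1 and 2 counts in OIS and log2 ratios of -8.74 with a 95% counting interval of -14.05 to -6.26 and of -8.33 with a 95% counting interval of -11.38 to -6.47. The lipid transporter ABCA8 was lower at -7.03 (SE 0.87). TPD52L1, LRRN4CL and CORIN had 2, 3 and 3 counts in OIS against 466, 569 and 549, with log2 ratios of -7.03 with a 95% counting interval of -10.08 to -5.17, of -6.73 with a 95% counting interval of -9.01 to -5.18 and of -6.68 with a 95% counting interval of -8.96 to -5.12. The bleomycin level of FGL2 rested on replicate 4, at 48.8 CPM against 4.72 CPM at most in the others. In all 6 the DMSO libraries held more than each OIS library.

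**Figure D3:**
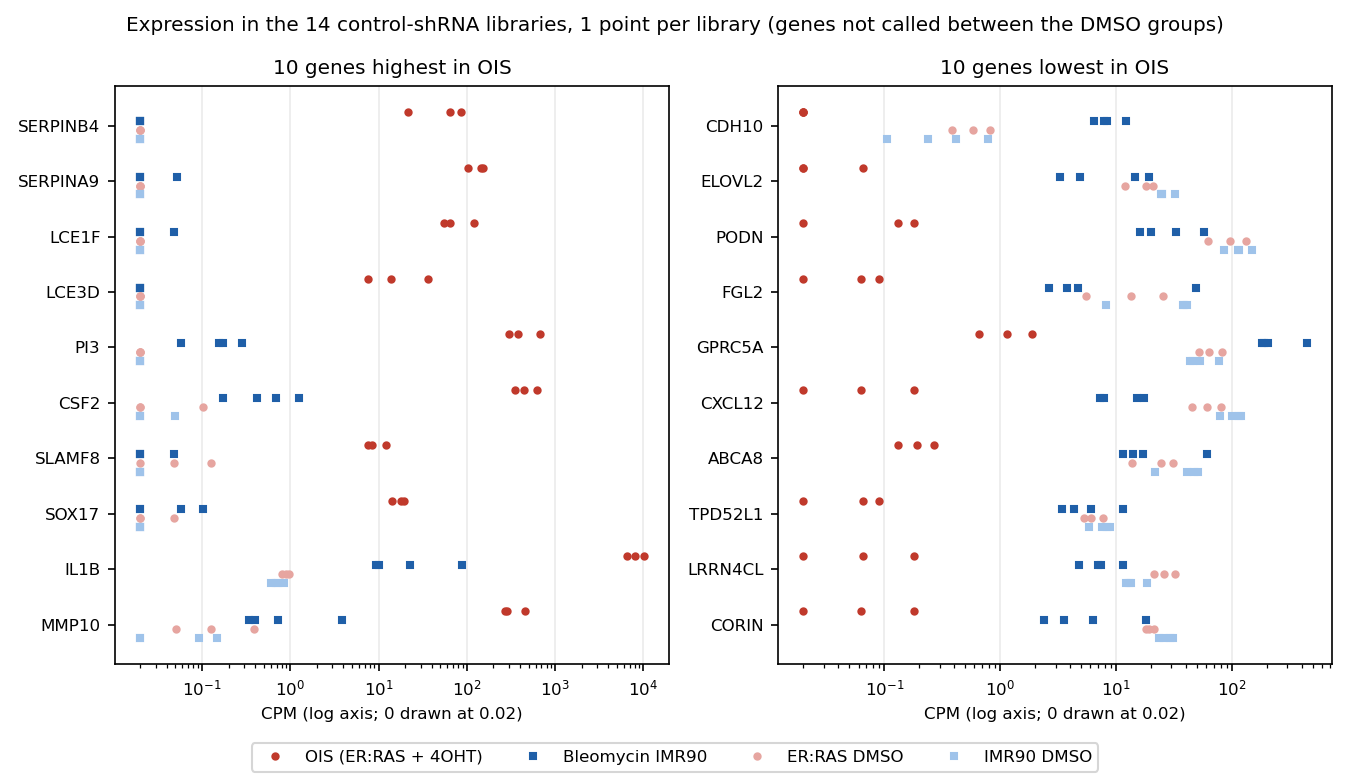
CPM in each of the 14 control-shRNA libraries, on a log axis with 0 drawn at 0.02, of the 10 genes highest and the 10 genes lowest in OIS by the rule on size that were not called between the DMSO groups. Each point is a library. In the left panel the OIS libraries sit to the right of all others, and in the right panel to the left of all others.

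Interferon-stimulated genes were mostly lower in OIS, whereas most genes of antigen presentation by MHC class I were higher. Of 29 interferon-stimulated genes 15 were called lower and 2 higher (median -1.09). IFIT1, an inhibitor of viral translation, stood at 0.451, 0.33 and 0.444 CPM in OIS and at 5.27, 11.1, 8.63 and 17.6 CPM after bleomycin (log2 fold change -4.69, SE 0.44, adjusted p = 2.32e-10), and IFIT2 at 0.451, 0.661 and 0.317 against 10.1, 7.63, 15 and 10.2 CPM (log2 fold change -4.47, SE 0.37, adjusted p = 1.26e-11). The groups did not overlap, and in IFIT1 both lay below the DMSO libraries of either line (20.8 to 39.1 CPM). GBP1, a guanylate-binding protein, was lower at -2.40 (SE 0.36) and the antiviral GTPase MX1 at -1.88 (SE 0.45), the latter not called after the correction for GC content and length (adjusted p = 0.0875). The 2 genes called higher were IRF1 (1.61, SE 0.29) and ISG15 (1.49, SE 0.45). ISG15 rested on OIS replicate 1, at 272, 88 and 47.8 CPM in the OIS libraries, and was 0.50 without it and not called. The promoter of IFIT1 (chr10:89392373-89392622, plus strand, GRCh38.p14) is shown because interferon acts through the ISRE element, whose letters were searched on both strands, after the values were seen, as GAAA, any 2 bases and GAAA; both matches, from bases 116 and 103 before the start, are in capitals, and 3.02% of all promoters held one.
IFIT1: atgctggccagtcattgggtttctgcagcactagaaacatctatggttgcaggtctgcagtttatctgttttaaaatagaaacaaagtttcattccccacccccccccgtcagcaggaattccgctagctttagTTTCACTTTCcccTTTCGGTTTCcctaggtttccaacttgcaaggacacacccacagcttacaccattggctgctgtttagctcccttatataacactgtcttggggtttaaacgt
Of 15 MHC class I genes 11 were called higher and 1 lower (median 0.76). HLA-B stood at 1200, 626 and 601 CPM in OIS against 296, 345, 249 and 332 CPM (log2 fold change 1.40, SE 0.25, adjusted p = 2.78e-05), and B2M, the invariant chain, at 855, 916 and 917 against 548, 540.2, 622 and 660 CPM (log2 fold change 0.60, SE 0.16, adjusted p = 0.00205), although the call of B2M was lost when only the compared libraries were fitted (adjusted p = 0.0527). OIS replicate 1 was the highest for HLA-B and HLA-C. Without it HLA-C was at 0.61 and the peptide transporter TAP1 at 0.44 (from 1.20 and 0.76), both not called (TAP1 also not when only the compared libraries were fitted), and the list had 5 calls. With both COPB2 shRNAs 2 of the 11 remained higher. Reads of HLA genes may be shared between them.

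Genes of glycolysis and of sterol synthesis were mostly higher in OIS. In glucose uptake and glycolysis 19 of 23 genes were called higher and 0 lower by edgeR and by DESeq2 alike (median 1.51), and 1, the glucose transporter SLC2A1, was lower at an unadjusted p under 0.05 (-0.59, adjusted p = 0.0707) and was called without OIS replicate 1 (-0.94). ENO2, an enolase, stood at 648, 401 and 255 CPM in OIS and at 64.2, 58.3, 43.5 and 57.1 CPM after bleomycin (log2 fold change 2.96, SE 0.31, adjusted p = 2.63e-09). PFKP, PGK1 and LDHA were higher by 2.29 (SE 0.23), 2.11 (SE 0.29) and 1.76 (SE 0.21), and GAPDH, often used as a reference gene, by 1.43 (SE 0.34). GAPDH was at 0.57 (SE 0.34) between the DMSO groups, not called in edgeR (adjusted p = 0.483). The test of one difference against the other did not call it (adjusted p = 0.244). The pyruvate kinase PKM was not called (0.66, adjusted p = 0.106) but was without OIS replicate 3 (0.98). In sterol synthesis 18 of 24 genes were called higher and 0 lower by edgeR (median 1.22), and 19 and 0 by DESeq2 or at an unadjusted p under 0.05 in edgeR. After the correction for GC content and length 20 sterol genes were called higher and 2 lower, and 19 and 1 in glycolysis. FDPS, which makes farnesyl diphosphate, stood at 1640, 945 and 681 CPM against 197, 173, 181 and 104 CPM (log2 fold change 2.73, SE 0.27, adjusted p = 5.72e-10), and FDFT1 and INSIG1 were higher by 2.26 (SE 0.23) and 2.52 (SE 0.31).

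The coatomer, the coat of vesicles from the Golgi apparatus, is what the series depletes. Of 16 genes of the coatomer, its ARF GTPases, their exchange factor and the N-myristoyltransferases, 4 were called higher and 2 lower (median 0.10). COPB2, the shRNA target, stood at 360.1, 458 and 620.4 CPM in OIS and at 382, 394, 548 and 481 CPM after bleomycin (log2 fold change 0.09, 95% interval -0.35 to 0.52, adjusted p = 0.755), with overlapping groups, but was called higher after the correction for GC content and length (1.07, adjusted p = 0.0111). COPE and ARF5 were called higher (1.36 and 1.60), both not without OIS replicate 1 (0.85 and 0.96), and NMT2, an N-myristoyltransferase, was lower at -1.51 (SE 0.24). Genes of the unfolded protein response had 6 called higher and 5 lower of 30 (median 0.07), and 7 in all without OIS replicate 1. The pseudokinase TRIB3 was higher by 3.29 (SE 0.31) and CHAC1, which degrades glutathione, by 2.11 (SE 0.33), and SEL1L, of the degradation complex of the endoplasmic reticulum, was lower at -1.61 (SE 0.45). DDIT3, which encodes CHOP, was not called (-0.17, adjusted p = 0.579). NRF2 targets had 6 called in each direction of 22 (median 0.07), with the cystine transporter SLC7A11 at 4.42, 2.58 and 5.51 CPM in OIS against 84.1, 23.7, 132 and 115 CPM (log2 fold change -4.41, SE 0.91, adjusted p = 0.000165).

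In the BCL2 family, which sets the threshold of apoptosis, 7 of 14 were called higher and 2 lower (median 0.81, or 0.52 without OIS replicate 1). The survival genes MCL1 and BCL2A1 were higher by 2.17 (SE 0.33) and 4.12 (SE 1.11), the latter by 5.97 without bleomycin replicate 4, and BCL2 was lower at -2.53 (SE 0.52). Prostaglandin genes had 6 called higher and 4 lower of 16 (median 0.45). PTGS1 and the prostacyclin synthase PTGIS were lower at -1.79 (SE 0.23) and -4.51 (SE 0.75), and PTGS2, the inducible cyclooxygenase, missed the threshold at 2.76 (adjusted p = 0.0536), with 94.9, 186 and 256 CPM in OIS and 7.66, 2.75, 3.51 and 91.4 CPM after bleomycin, and was called without bleomycin replicate 4 (5.26).

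**Figure D4:**
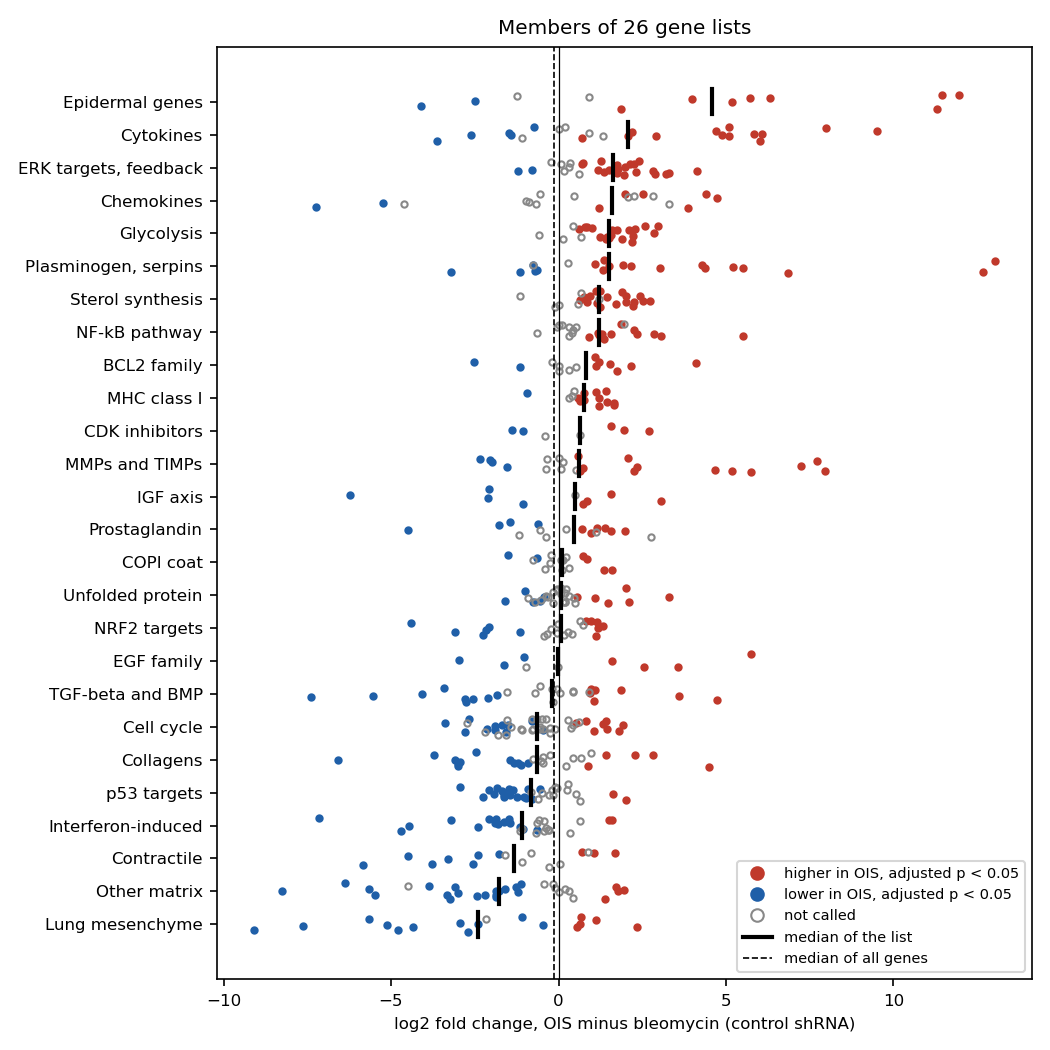
Fitted log2 fold change (OIS minus bleomycin, x axis) of each tested gene in 26 lists (1 line each), red where called higher in OIS, blue where called lower and open where not called. Bars are list medians and the dashed line the median of all genes (-0.12). Glycolysis (median 1.51) and sterol synthesis (1.22) lie to the right, and other matrix genes (-1.78) and lung mesenchyme (-2.40) to the left.

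Some named genes already differed between the lines, by the fit of all 42 libraries. The naming rule set how many of them are named. Of the 30 genes called in the same direction, 20 were higher and 10 lower in the ER:RAS line, and HRAS and ESR1, the parts of the fusion, are among the 20 and no finding. Among the others were CST1 and CST4, near-identical salivary cystatins that inhibit cysteine proteases. CST1 stood at 903, 589 and 429.6 CPM in OIS, 2.15, 0.401, 1.38 and 0.933 CPM after bleomycin, 0.917, 1.08 and 1.49 CPM in ER:RAS with DMSO and 0.12, 0.0459, 0 and 0 CPM in IMR90 with DMSO (log2 fold change 9.02, SE 0.55, adjusted p = 5.98e-14 between the end states, adjusted p = 0.00427 between the DMSO groups). The OIS level was far above all others. Neither CST1 nor CST4 was called by the test of one difference against the other (adjusted p = 0.081 and 0.93). WNT7B, a WNT ligand of epithelium, stood at 81.4, 66.3 and 68 CPM in OIS against 0.383, 0.401, 0.23 and 0.156 CPM (log2 fold change 7.91, SE 0.45, adjusted p = 1.54e-15), with a smaller difference of 2.22 between the DMSO groups (adjusted p = 0.0423). The end-state difference exceeded it by the test of the difference (adjusted p = 1.41e-06), as it did for the neurotensin receptor NTSR1 (5.00 against 1.92, adjusted p = 0.000124). Lower in both were HMCN1 (-2.92 against -1.95), a hemicentin of basement membranes, IL6R (-1.68 against -0.73), CARMIL1 (-1.38 against -1.32) and GPNMB (-1.07 against -1.41), and of these the test called the difference between both comparisons in IL6R (adjusted p = 0.00356) and not in the others (adjusted p = 0.317, 0.955 and 0.609). The call of CARMIL1 was lost when only the compared libraries were fitted.

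The direction was opposite in 10 genes. SCG2, secretogranin II of secretory granules, stood at 3.79, 2.25 and 3.36 CPM in OIS against 66.1, 36.8, 50.1 and 142 CPM (log2 fold change -4.56, SE 0.46, adjusted p = 1.01e-09) but at 16.6, 16.2 and 19.3 CPM in ER:RAS and 3.83, 4.54, 3.67 and 6.11 CPM in IMR90 with DMSO (1.94, SE 0.38, adjusted p = 0.0106). The line with the higher level was thus ER:RAS with DMSO and IMR90 at the end point. CCK, cholecystokinin, and TYMS, thymidylate synthase, had the same pattern (-2.95 against 2.08, and -1.90 against 1.06). The kinase SGK1 and the metalloprotease ADAM12 were higher in OIS (1.36 and 0.81) and lower in ER:RAS with DMSO (-0.82 and -1.17), and the end-state call of ADAM12 was lost when only the compared libraries were fitted.

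The same comparison was made in libraries that carry a shRNA against COPB2, for each of 2 shRNAs. These are not independent of the control set: in bleomycin the deviations of same-numbered libraries from their group correlated at 0.404 to 0.758 across the shRNAs in 8 of 8 pairs, and in OIS at -0.177 to 0.826, above 0.1 in 4 of 6. COPB2 stood at 82.1 to 122 CPM in these OIS and bleomycin libraries, against 360 to 620 CPM in those with the control shRNA. With shRNA 1, 6777 genes were called (44.3%), 3132 higher (20.5%) and 3645 lower (23.8%), and with shRNA 2, 5860 (38.3%), 2506 higher (16.4%) and 3354 lower (21.9%). Of the 7376 genes called with the control shRNA, 5962 (80.8%) were called in the same direction with shRNA 1, which was 88% of its own calls, and 5079 (68.9%) with shRNA 2, 86.7% of its calls. Both gave 4817 (65.3%), and 5 genes were called in the opposite direction with each. Of the cytokines 10 remained higher and 5 lower with both shRNAs, of ERK targets 18 and 2, of glycolysis 17 higher, of sterol synthesis 18 higher, and of matrix genes 4 and 18. Chemokines kept 1 higher call and 2 lower ones. IL1B differed by 5.40 and 6.57 and PI3 by 8.76 and 10.30 with shRNA 1 and 2, all called, and CSF3 by 1.49 and 3.85, neither called (adjusted p = 0.432 and 0.0586). In the bleomycin groups CSF3 held 491 counts in the control set, 7972 with shRNA 1 and 1895 with shRNA 2, and CXCL8 25481, 187881 and 99142.

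**Figure D5:**
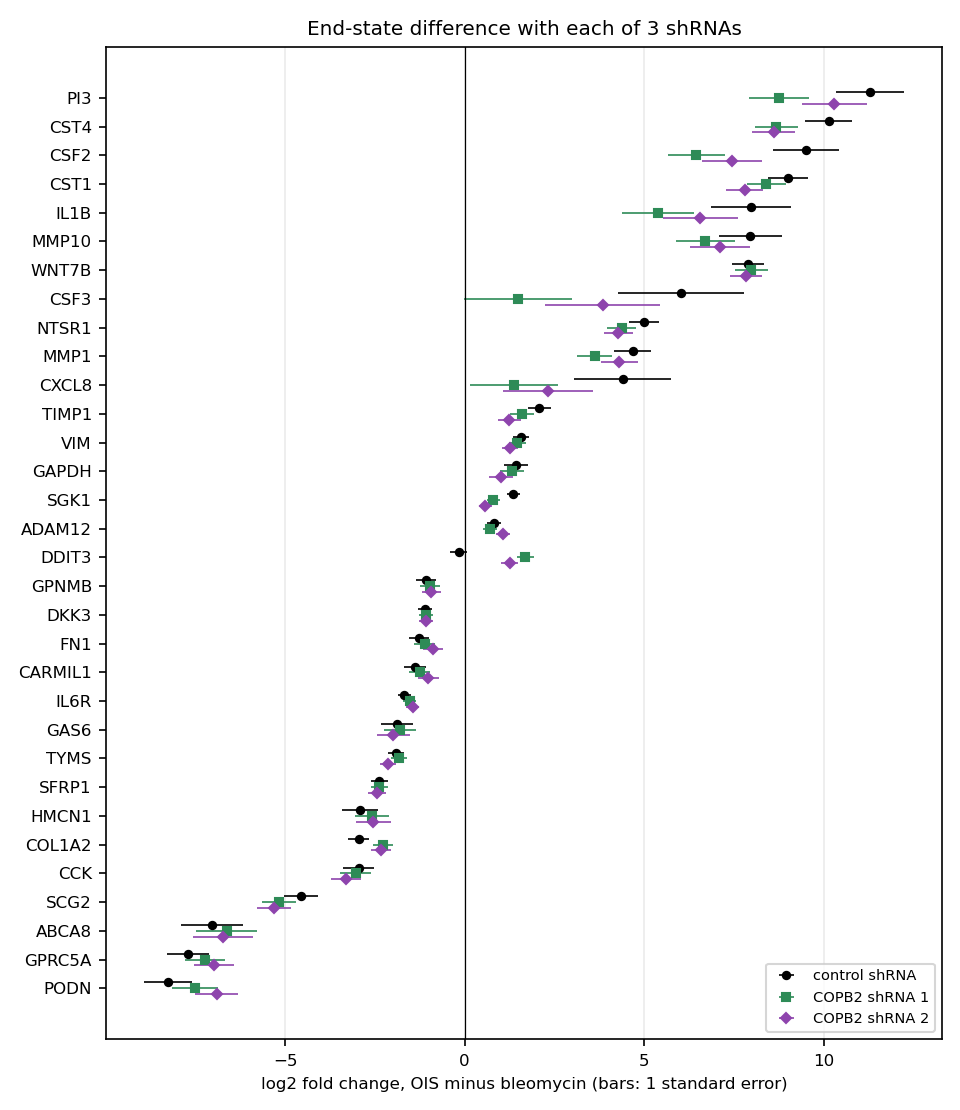
Log2 fold change between the end states (x axis; bars are 1 standard error) for 32 named genes with more than 3 counts over each of the 6 groups, with the control shRNA (black circles), COPB2 shRNA 1 (green squares) and COPB2 shRNA 2 (purple diamonds). All of these genes but DDIT3 lie on the same side of 0 in the 3 sets, and DDIT3 is at -0.17 with the control shRNA and above 1 with both others.

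Tested as a difference between the end-state contrasts with each shRNA and with the control, 8 genes passed with shRNA 1 and 3 with shRNA 2. DDIT3 was one of them, at -0.17 with the control shRNA and 1.69 with shRNA 1 (difference 1.86, adjusted p = 0.00968). In OIS it held 1143 counts with the control shRNA and 7282 and 8012 with shRNA 1 and 2. For CSF3, CXCL8 and IL1B that difference was not called. With a block for same-numbered libraries, chosen after seeing the data, 45 and 95 genes passed, among them all 8 and all 3 and DDIT3 with both shRNAs (1.75 and 1.33, adjusted p = 7.06e-05 and 0.00148), and those 3 cytokine genes still did not (adjusted p = 0.127 to 0.885).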

How the data were processed

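RNA was sequenced from 42 libraries in 12 groups (line, treatment and shRNA), grouped by their labels. Counts of reads per gene were deposited as whole numbers that the authors had not scaled, under gene symbols. The table has 28266 symbols, 3476 of them at 0 throughout. The submitters' processing notes name DRAGEN, STAR 2.7.8a and DESeq2 1.32.0 and a different genome build than the methods of the study, and the methods state a directional kit and stranded alignment but not the strand option of the counting, so no coordinates are given for counted genes. No pair of libraries was a duplicate (lowest chi-square per degree of freedom 8.76).

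All 42 libraries entered 1 fit of 12 group means (R 4.3.3, edgeR 4.0.16, limma 3.58.1): filterByExpr, TMM, robust quasi-likelihood dispersion and a two-sided F-test, with Benjamini-Hochberg adjustment over all 15299 genes and calls at 0.05. The test was checked on simulated counts. A group at 0 counts was set to 3 counts over the group, which gives a bound, and for 1 to 3 counts the ratio has an exact Poisson 95% interval, which covers counting error only. Alternatives were DESeq2 1.42.0 (size factors and Wald test), no filter, fits of 14 or of only the compared libraries, a replicate block, leaving out each library, a fold threshold and, chosen after seeing the data, a correction for GC content and transcript length.

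The groups compared, the gene lists and the tests were chosen with earlier results of these data known. Genes were named by a rule: called, at least 100 counts on average in the higher group and no overlap, then the 10 highest and 10 lowest not called between the DMSO groups, the 5 highest and 5 lowest called there in the same direction (4 were found lower), up to 5 in the opposite one, and the 5 largest differences in CPM each way. HRAS, ESR1, XIST and Y-linked genes were left out, and members of 26 lists may be named besides. Some list members are not reported here. Promoters are from RefSeq GRCh38.p14. PI3, CSF3 and COL1A2 are without a printed promoter. Motif shares are given for all promoters and were not tested between called genes. Of 15299 tested genes 11732 (76.7%) matched a promoter.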

Additional observations from a re-analysis of the deposited data

Results flagged for a closer look

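Single libraries stood apart from their group, by a gap to the nearest library that was too large a share of the group's range, in 31 of 231 genes checked in the 4 bleomycin libraries and in 2 of 14 in the 4 IMR90 libraries with DMSO. Chance gives about 1 in 20 groups for normally distributed values. CPM need not be so distributed, and the genes were not chosen at random, so the 31 is not read against that rate. Bleomycin replicate 4 was the library in 26 of the 31, and 24 of these were high and 2 low. Values are CPM, with the nearest library of the group in parentheses. Among chemokines replicate 4 was high for CXCL1 882 (38.6), CXCL2 31.5 (1.72), CXCL3 136 (4.12), CXCL5 489 (10.4), CXCL6 79.3 (4.36), CXCL8 1146 (96.6), CXCL10 23.3 (3.21) and CCL20 9.49 (1.53). For cytokines it was high for IL1B 89.1 (22.6), IL6 187 (19.6), IL11 157 (35.9), IL33 13.1 (1.48), CSF3 24.2 (0.91) and TNFSF15 128 (12.8). It was also high for ABCA8 61.2 (17.1), AREG 46.6 (5.75), CDK1 1.25 (0.288), FGL2 48.8 (4.72), FST 212 (159.9), MMP10 3.84 (0.718), PLAT 1682 (558), PTGES 72.7 (16.2), PTGS2 91.4 (7.66) and TCF21 245 (63.5). It was low for the endothelial markers CDH5 0.0519 (0.287) and PECAM1 0.363 (0.975). Bleomycin replicate 2 was high for GPRC5A 442 (204), LMOD1 106 (47.4) and WNT2 2.75 (1.04) and low for DUSP6 78.7 (135). Replicate 1 was high for ETV4 23.1 (16.9). In IMR90 with DMSO, replicate 4 was low for CCK 0.0527 (0.239) and replicate 2 for MMP1 7.84 (12.2).

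The end-state difference with a COPB2 shRNA differed from that with the control shRNA by the test of the difference (edgeR, adjusted p under 0.05) in 8 genes with shRNA 1, on the log2 scale MOCOS 2.04, DDIT3 1.86, C17orf107 2.28, LINC00346 1.86, INHBE 3.09, TCF19 2.28, CHRNE 3.95 and LDHD 3.45, and in 3 with shRNA 2, MOCOS 2.00, LINC00346 2.03 and TCF19 1.98. Each was more positive with the COPB2 shRNA. Apart from DDIT3 these genes were named because they passed this test. At an unadjusted p under 0.05 there were 320 genes with shRNA 1 and 564 with shRNA 2.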

How the results depend on the processing

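Of the 231 genes checked singly, 204 were called, 189 stayed called when any 1 of the 7 libraries was left out, and 182 stayed called under all other alternatives, the fold threshold apart. The sign changed in 2 uncalled genes, COPB2 (-0.14 without OIS replicate 3, to 0.26) and DDIT3 (0.0011 without bleomycin replicate 4, to -0.25). The median of all genes was -0.12, and lay between -0.07 and -0.34 under the other scalings, filters and samples apart from -0.02 after correcting for GC content and length, a setting chosen after seeing the data. Even at 15771259 to 18578123 counts a library, genes at 0 in a group allow bounds only.

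With only the libraries compared in the fit, 4672 genes were called between the end states (2317 higher, 2355 lower), 2 between the DMSO groups, 2 in both, and 3512 with COPB2 shRNA 2. Fewer libraries then share the estimate of the spread. That fit called 11 cell cycle genes, 4 of the IGF pathway, 10 of lung mesenchyme and 6 of the unfolded protein response. For the epidermal genes, whose filter favours high OIS levels so that nothing is read from them, it gave 6 calls and a median of 5.67. A difference of at least 1 on the log2 scale left 2228 higher. Fitting the 14 control-shRNA libraries called 7 genes between the DMSO groups, 5 of them in both comparisons, and gave an epidermal median of 3.76. The Wald test of DESeq2 called 165 and 120, and counting genes with an unadjusted p between the DMSO groups gave 1211 in both. The correction for GC content and length called 143 between the DMSO groups and 110 in both, and its medians were 1.80 for plasminogen activators and serpins, 3.81 for epidermal genes, 0.081 for CDK inhibitors, -0.64 for the TGF-beta family, -0.16 for the IGF pathway, 0.29 for the BCL2 family and 0.27 for the coatomer list. The cause of these changes was not tested.

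Between the lines, replicate numbers did not pair the libraries throughout: deviations of same-numbered OIS and bleomycin libraries correlated at 0.0087, -0.27 and 0.66, and those of the DMSO groups at -0.48, -0.51 and 0.75. With the replicate block, 8801 genes were called between the end states, 202 between the DMSO groups and 159 in both, 13 chemokines were called, and the median of plasminogen activators and serpins was 1.81. Across the shRNAs of 1 line and treatment, every pair of same-numbered libraries correlated above 0.1 in bleomycin but not in OIS. A block for them gave 45 and 95 genes whose end-state difference with COPB2 shRNA 1 and 2 differed from that with the control shRNA, against 8 and 3 without it.

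Leaving out 1 library at a time, calls higher in OIS ran from 2365 to 3911, calls between the DMSO groups from 19 to 88 and calls in both from 15 to 66. List medians ran from 0.95 to 1.44 for NF-kB, 1.33 to 1.63 for plasminogen activators and serpins, 0.26 to 0.92 for CDK inhibitors, -2.77 to -2.05 for lung mesenchyme, 0.52 to 1.04 for the BCL2 family and 1.10 to 1.77 for glycolysis. Calls ran from 5 to 8 in the IGF pathway, 5 to 13 for MHC class I and 7 to 14 for the unfolded protein response.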
